A study of Mus musculus with 18 samples.

Results

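The hair and epidermal keratin genes are all genes whose symbol is Krt or Krtap followed by a number, without Krt5, Krt7, Krt8, Krt14, Krt17, Krt18 and Krt19, the keratins most used as markers of mammary epithelium. The rule reads symbols only and no measured value, but it was set with earlier results of these data known. Of 18193 genes on the array with a probe set of a single gene symbol, 79 met this rule, through 92 probe sets. By the keratins' known sites, 12 are hair shaft keratins, 7 are keratins of the inner root sheath and 38 are keratin-associated proteins. Krt84, a hard keratin of the tongue papillae, is counted among the 12. Another 4 are keratins of the companion layer or of stressed epidermis, 9 are epidermal keratins, 8 belong to other epithelia and Krt88 was not placed.

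The study measured total RNA of whole mammary glands of virgin female mice on 18 Affymetrix Mouse Genome arrays, to set glands without the tyrosine kinase domain of the receptor Ron against controls during pubertal growth. RonTK-/- glands at 5, 6 and 7 weeks of age and RonTK+/+ glands at 5, 6 and 7 weeks of age were given 3 arrays each. The labels name no strain background beyond the genotype, no treatment and no litter, and they do not say whether the 3 arrays of a group came from separate animals, so p-values measure the spread between these samples, which may be technical. Fat was spun off the TriZol lysate before extraction, and the labels do not say which gland pairs were taken or how the overlying skin was removed.

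Keratins are the intermediate filament proteins of epithelia, and each filament pairs a type I with a type II keratin. Basal cells of the epidermis that move upward switch to Krt1 and Krt10 before they cornify, whereas the growing hair follicle makes its own set. There, trichohyalin-rich inner root sheath cells make Krt25 to Krt28 and Krt71 to Krt73, and shaft cells make hair keratins embedded in a matrix of keratin-associated proteins. Shaft and sheath genes are on while a follicle grows and off while it rests. The mammary gland lies in the fat under the skin, and a duct opens through the nipple.

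Values are log2 of the deposited ratio, in which 0 stands for the median of the RonTK+/+ arrays in 85 of the 92 probe sets, so that a log2 ratio of 1 is a doubling over that median. Absolute signal is not known, no level is compared between genes, and the presence of mammary cell types could not be checked against the labelled tissue by level. Each array had a median ratio of 1 over all probe sets, and the SD of its log2 ratios ran from 0.125 to 0.450. Mst1r, which encodes Ron, had a single probe set with log2 ratios of -0.43 to 1.07 in RonTK-/- arrays and -0.31 to 0.49 in RonTK+/+ arrays. The sources used here do not say whether it reads the deleted exons, so Mst1r cannot test the genotype labels.

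In 3 arrays the keratins stood apart from the other 15. In RonTK-/- array 1 at 6 weeks, 17 of the 79 genes (21.5%) had a log2 ratio of 1 or more, where 0.737% of all genes did. In RonTK+/+ array 3 at 5 weeks there were 22 (27.8%), against 0.495% of all genes, and in RonTK+/+ array 1 at 6 weeks there were 5 (6.33%), against 0.879% of all genes. The heatmap of all 79 genes shows the same 3 columns. Both genotypes and more than 1 age are among them, and each is 1 array of a group of 3. A gene at a log2 ratio of 1 or more is called raised in that array here, as a description with no test.

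**Figure D1:**
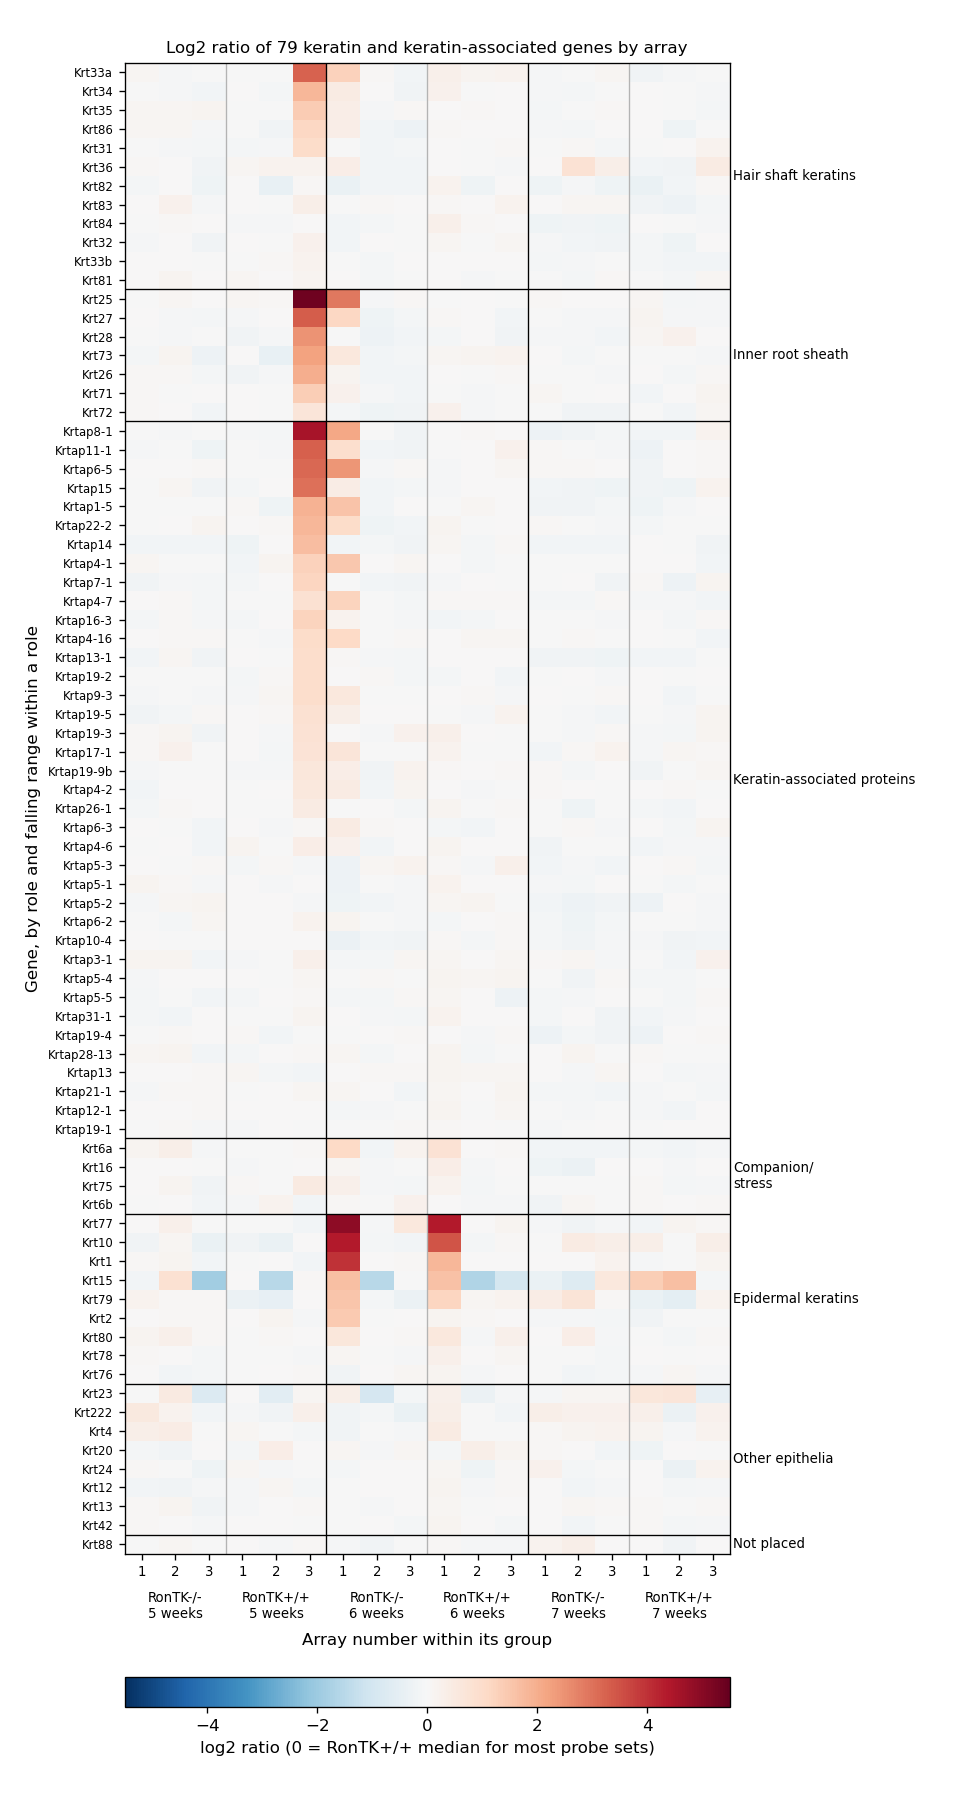
Log2 ratio of each of the 79 keratin and keratin-associated genes (down the page, by role and falling range) in each of the 18 arrays (across, by age, with RonTK-/- left of RonTK+/+). Red is above 0 and blue below it. RonTK+/+ array 3 at 5 weeks is red in hair and inner root sheath genes, RonTK+/+ array 1 at 6 weeks in epidermal keratins, and RonTK-/- array 1 at 6 weeks in both.

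Among the other 15 arrays, 73 of the 79 genes stayed within 0.5 of a log2 ratio of 0 in every array, against 73.7% of all genes. The 3 arrays were set apart because keratins were high in them, so low keratin values in the other 15 follow in part from that choice. The shares of all genes in the 15 arrays are therefore no fair measure for the keratins. Krt15 was the only member to reach 1 in any of the 15, where 3.61% of all genes did, and the only member at -1 or less, where 5.03% of all genes were. Over all 18 arrays, 49 of the 79 genes reached 1 in none, a smaller share than the 95.6% of all genes. The highest value of 38 members (48.1%) was in RonTK+/+ array 3 at 5 weeks, which held the highest value of 4.27% of all genes. RonTK-/- array 1 at 6 weeks held the highest value of 12 members (15.2%, against 3.89% of all genes), and RonTK+/+ array 1 at 6 weeks that of 14 (17.7%, against 9.57%).

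The 3 arrays carried different keratins. RonTK+/+ array 3 at 5 weeks had 6 of 7 inner root sheath keratins, 5 of 12 hair shaft keratins and 11 of 38 keratin-associated proteins at 1 or more, and 0 of 9 epidermal keratins. RonTK+/+ array 1 at 6 weeks was the reverse, with 5 of 9 epidermal keratins and 0 of the 57 hair shaft, sheath and keratin-associated genes. RonTK-/- array 1 at 6 weeks had 6 of 9 epidermal keratins, Krt6a, 2 of 7 sheath keratins, 1 of 12 shaft keratins and 7 of 38 keratin-associated proteins. In bulk RNA, more cells of a type and more RNA per cell cannot be told apart.

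**Figure D2:**
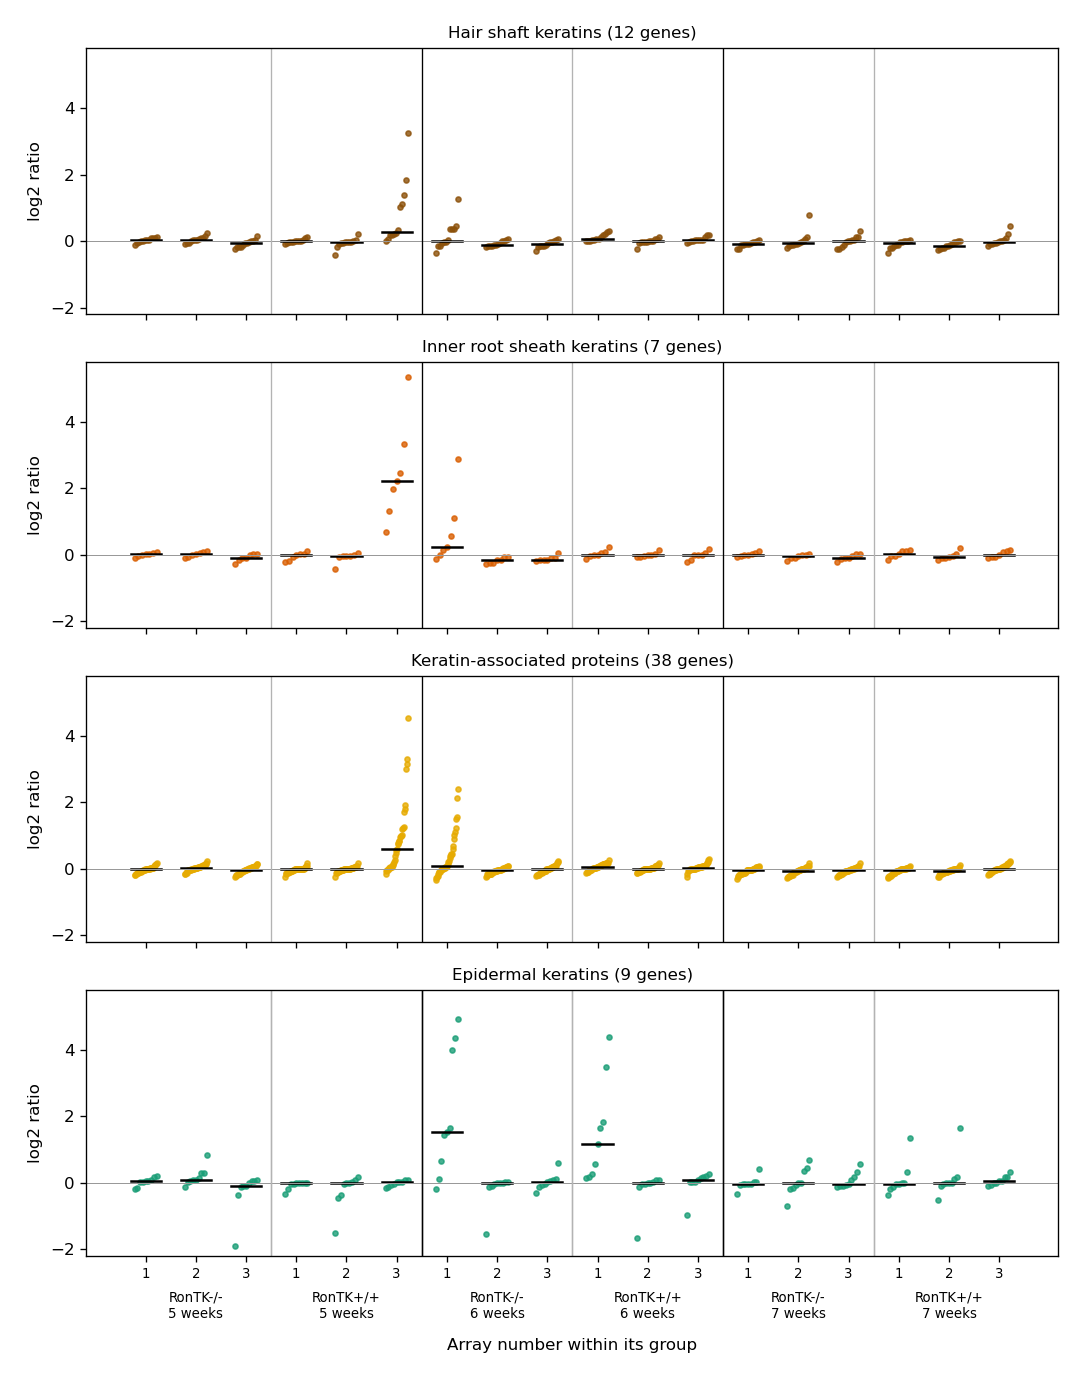
Log2 ratio of each gene (points) in each of the 18 arrays, in 4 panels for hair shaft keratins, inner root sheath keratins, keratin-associated proteins and epidermal keratins, with the median of the role as a bar. The inner root sheath median is 2.22 in RonTK+/+ array 3 at 5 weeks, and the epidermal median is 1.52 in RonTK-/- array 1 at 6 weeks and 1.18 in RonTK+/+ array 1 at 6 weeks.

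The genes that were high in an array lay on several chromosomes. Type I keratins are clustered on chromosome 11 and type II keratins on chromosome 15, and the keratin-associated proteins lie mostly on chromosomes 16 (20 genes) and 11 (10 genes). Raised genes of RonTK+/+ array 3 at 5 weeks came from all 3 chromosomes, with 4 of 4 type I and 2 of 3 type II sheath keratins. Promoters are shown for 8 of the genes the results turn on, as the 60 bases before the start of each gene, 5′ to 3′ on the gene's strand, from RefSeq on build GRCm38.p6. Capitals mark TATAAA, the canonical TATA box, where a search found it. The shaft keratins are Krt34 at chr11:100041555-100041614 and Krt31 at chr11:100050552-100050611, the sheath keratins Krt25 at chr11:99322952-99323011 and Krt27 at chr11:99351119-99351178. The keratin-associated proteins are Krtap8-1 at chr16:89487953-89488012 and Krtap11-1 at chr16:89571184-89571243, and the epidermal keratins Krt77 at chr15:101869706-101869765 and Krt10 at chr11:99389365-99389424. All 8 are on the minus strand.
Krt34: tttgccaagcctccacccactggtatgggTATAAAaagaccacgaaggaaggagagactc
Krt31: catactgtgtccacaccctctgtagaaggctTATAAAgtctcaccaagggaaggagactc
Krt25: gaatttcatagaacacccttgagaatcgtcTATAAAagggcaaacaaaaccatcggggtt
Krt27: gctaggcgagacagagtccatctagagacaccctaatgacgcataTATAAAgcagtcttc
Krtap8-1: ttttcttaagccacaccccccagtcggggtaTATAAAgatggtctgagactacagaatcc
Krtap11-1: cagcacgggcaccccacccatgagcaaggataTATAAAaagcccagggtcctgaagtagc
Krt77: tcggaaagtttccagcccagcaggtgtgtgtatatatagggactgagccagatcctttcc
Krt10: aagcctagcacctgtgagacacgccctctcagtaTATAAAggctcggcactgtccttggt
In these windows TATAAA began at position -31 in Krt34, -29 in Krt31 and Krtap8-1, -30 in Krt25, -28 in Krtap11-1 and -26 in Krt10, counted from the start of the gene, and at -15 in Krt27. The letters are not in the Krt77 window.

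A RefSeq window of 250 bases before to 50 bases after the start was at hand for 63 of the 79 genes. TATAAA stood on the gene's strand in 44 of the 63 (69.8%) and in 2400 of all 27025 windows (8.88%). Within the stretch 50 to 11 bases before the start it stood in 36 of 63 (57.1%), against 2.64% of all windows, and on either strand of the whole window in 46 of 63 (73.0%), against 14.2%. By role, the count on the gene's strand was 6 of 7 sheath keratins, 4 of 7 shaft keratins, 29 of 36 keratin-associated proteins and 2 of 6 epidermal keratins. It was 18 of 23 (78.3%) among members at 1 or more in any of the 3 arrays and 26 of 40 (65.0%) among the others, so most windows of either kind held the letters. CTTTGA, a core motif of the Tcf and Lef factors of Wnt signalling, was found on the gene's strand in 13 of 63 member windows (20.6%) and in 8.64% of all windows. It was found in 8 of 23 windows (34.8%) of members at 1 or more in any of the 3 arrays and in 5 of 40 (12.5%) of the others, and in the stretch 50 to 11 bases before the start in 0 of 63, against 0.892% of all windows. It does not overlap TATAAA, and for each motif a match is a match of letters and no shown binding site.

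Hair shaft keratins fill the cortex and cuticle of the hair. The type I cortex keratin Krt33a had ratios of 1.07, 0.947 and 0.989 in RonTK-/- glands, against 0.976, 0.987 and 9.56 in RonTK+/+ glands at 5 weeks. At 6 weeks they were 2.40, 1.04 and 0.909 in RonTK-/- glands, against 1.23, 1.10 and 1.14 in RonTK+/+ glands, and at 7 weeks 0.951, 0.986 and 1.09 in RonTK-/- glands, against 0.870, 0.947 and 1.00 in RonTK+/+ glands. A single array of each genotype was high, the RonTK+/+ one more so, and the remaining values lay between 0.870 and 1.23. Krt34, another type I hair keratin of the cortex, had a log2 ratio of 1.85 in RonTK+/+ array 3 at 5 weeks and 0.47 in RonTK-/- array 1 at 6 weeks. Krt35, which appears early in the differentiating shaft, had 1.38 and 0.38 in the same arrays, the type II keratin Krt86 had 1.12 and 0.37, and Krt31 had 1.02 and -0.04.

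The other 7 shaft keratins stayed below 1 in every array. Krt36 differed from the rest in that its highest value, 0.78, was in RonTK-/- array 2 at 7 weeks, with 0.18 in RonTK+/+ array 3 at 5 weeks. Krt32 and Krt82, keratins of the hair cuticle in human follicles, had 0.23 and 0.07 in RonTK+/+ array 3 at 5 weeks. Krt33b, a near relative of Krt33a, had only 0.20 there, and the type II cortex keratins Krt81 and Krt83 had 0.17 and 0.33. Krt84, a hard keratin of the tongue papillae, had 0.01. The array with raised Krt33a, Krt34 and Krt35 thus had Krt32, Krt82 and Krt33b well below 1. Each of these was read by a single probe set whose signal over background is unknown.

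Inner root sheath keratins gave the widest range of any member. Krt25, a type I keratin of all sheath layers, had ratios of 0.999, 1.06 and 1.03 in RonTK-/- glands, against 1.09, 1.05 and 40.5 in RonTK+/+ glands at 5 weeks. At 6 weeks the ratios were 7.47, 0.957 and 1.05 in RonTK-/- glands, against 0.977, 1.00 and 0.992 in RonTK+/+ glands. At 7 weeks they were 1.03, 1.01 and 1.01 in RonTK-/- glands, against 1.08, 0.942 and 0.958 in RonTK+/+ glands. Outside those 2 arrays no Krt25 ratio left the range of 0.942 to 1.09, so the gene was high in 2 arrays and near 1 in the other 16.

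Its partners followed it to unlike degrees. In RonTK+/+ array 3 at 5 weeks the log2 ratio was 3.34 for Krt27 and 2.48 for Krt28, which share the sheath with Krt25, and 2.22 for Krt73 and 2.00 for Krt26, both keratins of the sheath cuticle in human follicles. Krt71, the type II keratin of all sheath layers, had 1.33 there, and Krt72, another sheath cuticle keratin, had 0.68. In RonTK-/- array 1 at 6 weeks Krt25 had 2.90, Krt27 had 1.12 and Krt73 had 0.58. Krt71, Krt26, Krt28 and Krt72 had 0.23, 0.15, 0.00 and -0.12 there. RonTK+/+ array 1 at 6 weeks lay between -0.11 and 0.23 in all 7.

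Keratin-associated proteins cross-link the hair keratins, and they fall into families rich in cysteine or in glycine and tyrosine. Krtap8-1, of a glycine and tyrosine family, had ratios of 0.981, 0.957 and 0.981 in RonTK-/- glands, against 0.971, 0.925 and 23.3 in RonTK+/+ glands at 5 weeks. At 6 weeks they were 4.37, 0.973 and 0.864 in RonTK-/- glands, against 1.01, 1.06 and 1.00 in RonTK+/+ glands, and at 7 weeks 0.812, 0.887 and 0.941 in RonTK-/- glands, against 0.893, 0.903 and 1.13 in RonTK+/+ glands. The same 2 arrays as for Krt25 were high. Of the 38, 11 reached a log2 ratio of 1 in RonTK+/+ array 3 at 5 weeks and 7 in RonTK-/- array 1 at 6 weeks.

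Individual keratin-associated genes differed in which of the 2 arrays was higher, as the plot of one array against the other shows. Krtap15 had 0.41 in RonTK-/- array 1 at 6 weeks and 3.01 in RonTK+/+ array 3 at 5 weeks, Krtap11-1 had 0.90 and 3.30, and Krtap14 had -0.14 and 1.70. Krtap6-5, of another glycine and tyrosine family, had 2.41 and 3.15, the cysteine-rich Krtap1-5 had 1.55 and 1.93, and Krtap22-2 had 1.02 and 1.81. Some of the cysteine-rich Krtap4 genes were higher in the RonTK-/- array. Krtap4-1 had 1.49 in RonTK-/- array 1 at 6 weeks and 1.26 in RonTK+/+ array 3 at 5 weeks, Krtap4-7 had 1.22 and 0.83, and Krtap4-16 had 1.09 and 1.00, whereas Krtap4-2 had 0.46 and 0.57 and Krtap4-6 had 0.24 and 0.39. Genes of 1 Krtap family are close in sequence, so the family members may not be independent readings. A suffix for possible cross-hybridisation is carried by 12 of the 92 probe sets, 4 of them of keratin-associated proteins and none of these Krtap4 genes.

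Other keratin-associated families stayed near 0. Krtap5-1 to Krtap5-5, Krtap10-4 and Krtap12-1, whose families are expressed in the hair cuticle in human follicles, had log2 ratios from -0.34 to just under 0 in RonTK-/- array 1 at 6 weeks and from -0.06 to 0.12 in RonTK+/+ array 3 at 5 weeks. The narrowest ranges over the 18 arrays among these 38 genes were those of Krtap19-1 (0.14 log2 units) and Krtap12-1 (0.30). Within the Krtap19 family, Krtap19-2 had 0.99 and Krtap19-5 had 0.84 in RonTK+/+ array 3 at 5 weeks, whereas Krtap19-1 had -0.03 and Krtap19-4 had -0.02.

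**Figure D3:**
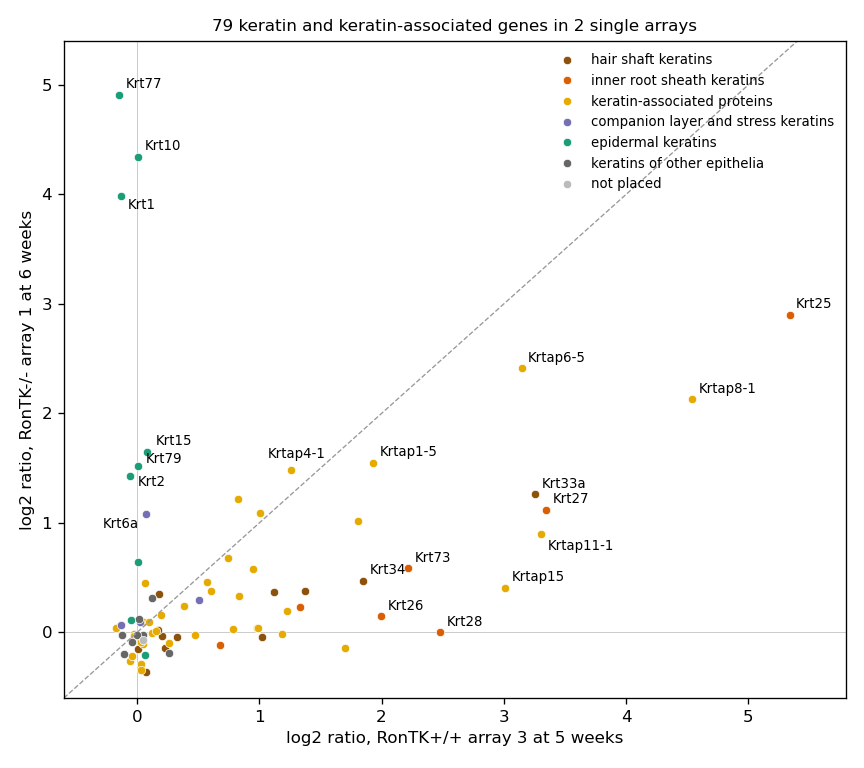
Log2 ratio of each of the 79 genes in RonTK+/+ array 3 at 5 weeks (x axis) and in RonTK-/- array 1 at 6 weeks (y axis), coloured by role, with the line of equal values. Epidermal keratins lie along the y axis, with Krt77 at 4.91 in the RonTK-/- array, and the sheath keratins and all shaft keratins but Krt36 lie under the line, with Krt25 at 2.90 in the RonTK-/- array and 5.34 in the RonTK+/+ array.

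The lists of raised genes in the 3 arrays overlapped in part. There were 9 members at a log2 ratio of 1 or more in RonTK-/- array 1 at 6 weeks that were so in RonTK+/+ array 3 at 5 weeks too, which is 52.9% of the genes of the RonTK-/- array and 40.9% of those of the RonTK+/+ array. The shared genes were Krt25, Krt27, Krt33a, Krtap1-5, Krtap22-2, Krtap4-1, Krtap4-16, Krtap6-5 and Krtap8-1. All 5 genes of RonTK+/+ array 1 at 6 weeks were among the 17 of RonTK-/- array 1 at 6 weeks, and 0 were among those of RonTK+/+ array 3 at 5 weeks. No test was made between single arrays. How far all raised genes of these arrays overlap is not given here, so these counts are no result about the keratins.

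Epidermal keratins were raised in the 2 arrays at 6 weeks. Krt77, a type II keratin of suprabasal epidermis in the mouse, had ratios of 30.1, 0.970 and 1.51 in RonTK-/- glands, against 20.8, 1.00 and 1.12 in RonTK+/+ glands at 6 weeks. At 5 weeks they were 1.00, 1.21 and 0.995 in RonTK-/- glands, against 0.971, 0.975 and 0.901 in RonTK+/+ glands, and at 7 weeks 0.956, 0.875 and 0.947 in RonTK-/- glands, against 0.912, 1.12 and 1.04 in RonTK+/+ glands. Array 1 of each genotype at 6 weeks was far above every other array.

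Krt10, the type I keratin of the suprabasal layers, had ratios of 20.3, 0.917 and 0.912 in RonTK-/- glands, against 11.0, 0.916 and 1.05 in RonTK+/+ glands at 6 weeks. Its partner Krt1 had 15.8, 1.00 and 1.03 in RonTK-/- glands, against 3.57, 1.00 and 1.01 in RonTK+/+ glands at that age. Krt2, a keratin of the upper epidermal layers, had 2.69, 1.00 and 1.02 in RonTK-/- glands, against 1.09, 1.06 and 1.00 in RonTK+/+ glands. On the log2 scale the 2 raised arrays were close in Krt77, at 4.91 in the RonTK-/- array and 4.38 in the RonTK+/+ array, and further apart in Krt1, at 3.99 and 1.83, and in Krt2, at 1.43 and 0.13. Krt79, found in the upper canal of mouse follicles, had 1.52 in RonTK-/- array 1 and 1.18 in RonTK+/+ array 1 at 6 weeks, and Krt80 had 0.64 and 0.56. Krt78 and Krt76 did not exceed 0.26 in any array.

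Krt15 behaved unlike the other epidermal keratins. It is made by basal cells of stratified epithelia and by stem cells of the hair bulge. Its ratios were 0.903, 1.79 and 0.265 in RonTK-/- glands, against 1.00, 0.348 and 1.06 in RonTK+/+ glands at 5 weeks. At 6 weeks they were 3.14, 0.345 and 0.973 in RonTK-/- glands, against 3.10, 0.314 and 0.505 in RonTK+/+ glands. At 7 weeks they were 0.782, 0.616 and 1.48 in RonTK-/- glands, against 2.56, 3.10 and 0.932 in RonTK+/+ glands. High and low values occurred in both genotypes, and RonTK+/+ arrays 1 and 2 at 7 weeks, in which Krt1 and Krt10 were not raised, came near the values of the 2 raised arrays at 6 weeks.

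The basal keratin Krt5, outside the rule and common to epidermis and to mammary basal cells, is set beside Krt15 here in some of the arrays. Krt15 had a log2 ratio of -1.92 in RonTK-/- array 3 at 5 weeks, where Krt5 had -0.54, and of -1.54 in RonTK-/- array 2 at 6 weeks, where Krt5 had -0.67. In the second RonTK+/+ array of those ages Krt15 had -1.52 and -1.67, and Krt5 had -0.64 and -0.75. In RonTK+/+ arrays 1 and 2 at 7 weeks Krt15 had 1.36 and 1.63, and Krt5 had 0.77 and 0.60. All 4 of the low arrays also had a mean log2 ratio of 22 skeletal muscle genes of -5.11 to -5.45, but so did RonTK-/- array 3 at 6 weeks (-5.24), where the Krt15 ratio was 0.973, and RonTK+/+ array 2 at 7 weeks (-5.37), where it was 3.10. Krt15 and the basal keratins did not move together in every array. In RonTK-/- arrays 1 and 2 at 7 weeks Krt15 had -0.35 and -0.70. The lowest of the 7 keratins outside the rule, Krt5 among them, had 0.03 and 0.26 there. The part of muscle or basal cell content in the Krt15 values was not tested.

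Of the companion layer and stress keratins only Krt6a was raised, in 1 array. Krt6a, induced in stressed epidermis and made in the companion layer, had 1.08 in RonTK-/- array 1 at 6 weeks and 0.78 in RonTK+/+ array 1 at 6 weeks. Its 3 probe sets disagreed, with 0.43, 2.44 and 0.36 in the RonTK-/- array and 0.57, 1.19 and 0.59 in the RonTK+/+ array. Its type I partner Krt16 had 0.10 and 0.38 in those arrays, and Krt6b had 0.07 and 0.02. Krt75, a companion layer keratin, had its highest value of 0.51 in RonTK+/+ array 3 at 5 weeks.

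Keratins of other epithelia had no member at 1 in any array. Krt23, a type I keratin of simple epithelia, had the widest range, with ratios of 0.991, 1.39 and 0.602 in RonTK-/- glands, against 1.00, 0.659 and 1.09 in RonTK+/+ glands at 5 weeks. Its highest ratios, 1.54 and 1.58, were in RonTK+/+ arrays 1 and 2 at 7 weeks, the same arrays in which Krt15 was high. Krt4 and Krt13, the pair of moist stratified epithelia such as oesophagus, ranged over 0.66 and 0.36 log2 units. Krt20 of gut epithelium, Krt12 of the cornea, Krt24, Krt42 and the keratin-like Krt222 ranged over 0.32 to 0.89, and Krt88, which was not placed, over 0.49.

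Other genes of skin and follicle were read by array from lists of cell type markers. Of 17 hair follicle genes without keratins, the mean log2 ratio was 0.30 in RonTK-/- array 1 at 6 weeks, 0.72 in RonTK+/+ array 3 at 5 weeks and 0.09 in RonTK+/+ array 1 at 6 weeks, and between -0.15 and 0.09 in the other 15. Few genes carried it. Tchh, which encodes the sheath protein trichohyalin, had 3.24 in RonTK-/- array 1 at 6 weeks and 5.38 in RonTK+/+ array 3 at 5 weeks, and Prr9 had 1.84 and 3.75. S100a3, a cuticle calcium-binding protein in human hair, had 0.35 and 1.52. Of the transcription factors in the list, Hoxc13, Foxn1 and Dlx3 had -0.08, -0.16 and -0.12 in the RonTK-/- array and 0.38, 0.01 and 0.04 in the RonTK+/+ array. Sox21 and Ovol1, also in the list, are not given here.

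Of 34 cornified epidermis genes without keratins, the mean was 1.85 in RonTK-/- array 1 at 6 weeks, with 22 genes at 1 or more. It was 0.11 in RonTK+/+ array 3 at 5 weeks, with 2 genes, and 1.33 in RonTK+/+ array 1 at 6 weeks, with 18 genes. It lay between -0.07 and 0.02 in the other 15. The cornified envelope genes Lor and Lce1c had 3.65 and 4.29 in RonTK-/- array 1 at 6 weeks and 3.01 and 3.46 in RonTK+/+ array 1 at 6 weeks. Flg, which encodes filaggrin, had 3.76 and 2.33. Dmkn and Krtdap, secreted by differentiating keratinocytes, had 4.45 and 4.18 in the RonTK-/- array and 3.61 and 3.24 in the RonTK+/+ array, and they also had 1.42 and 1.30 in RonTK-/- array 2 at 7 weeks, where Krt10 had 0.43.

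Markers of other cell types were read in the same arrays. The mean of 9 melanocyte genes was 0.07 in RonTK-/- array 1 at 6 weeks, -0.09 in RonTK+/+ array 3 at 5 weeks and 0.24 in RonTK+/+ array 1 at 6 weeks, and between -0.08 and 0.24 in the other 15. The mean of the 22 skeletal muscle genes was -3.59, 0.27 and 0.62 in those arrays, and that of 12 B lymphocyte genes 0.20, -2.00 and -1.99. The 2 arrays with raised epidermal keratins at 6 weeks thus lay on opposite sides in muscle and lymphocyte genes. The part of skin, muscle or lymphocyte content in the keratin values was not tested.

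**Figure D4:**
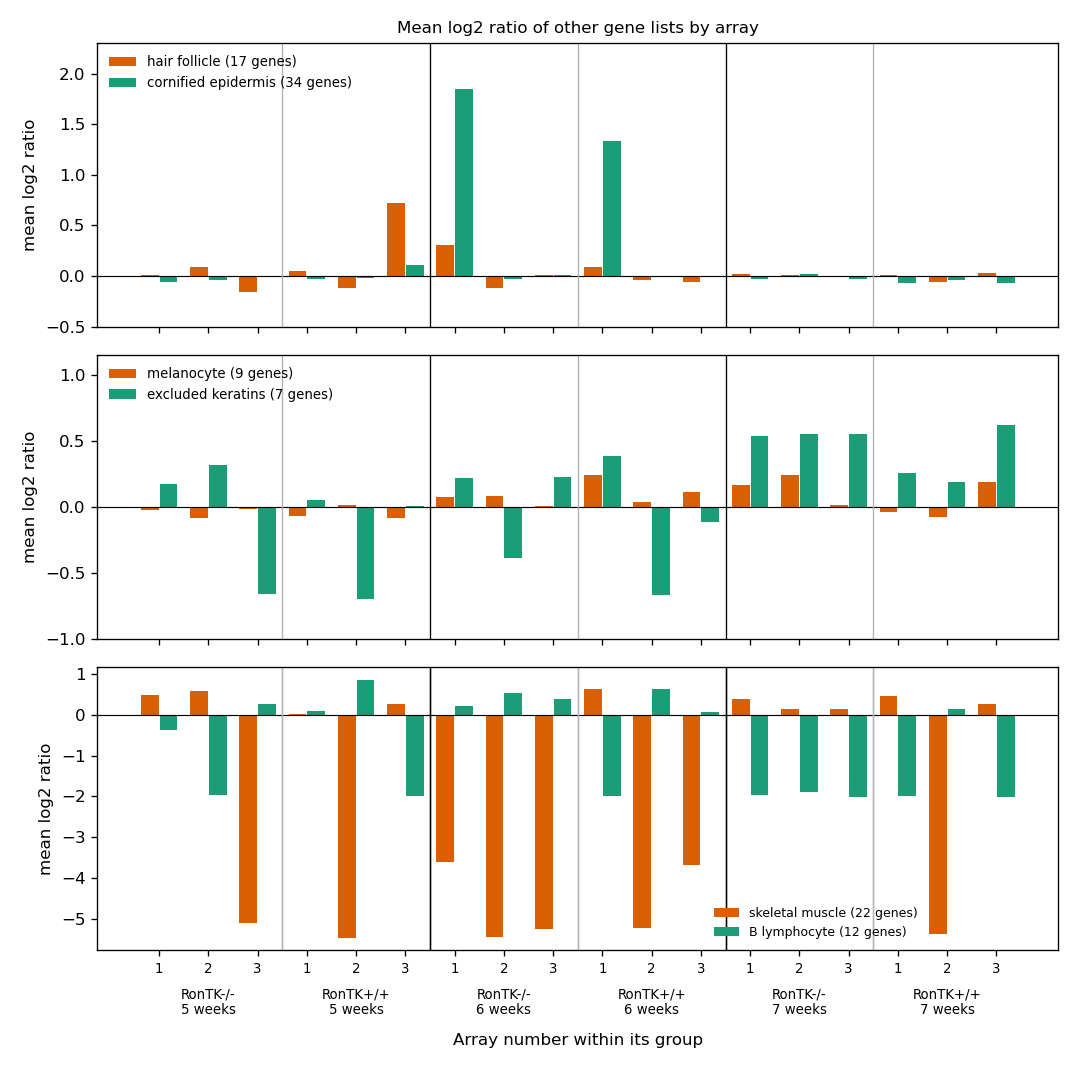
Mean log2 ratio per array (bars from 0) of hair follicle and cornified epidermis genes in the upper panel, melanocyte genes and the 7 keratins outside the rule in the middle panel, and skeletal muscle and B lymphocyte genes in the lower panel, with RonTK-/- left of RonTK+/+ at each age. The cornified epidermis mean is 1.85 in RonTK-/- array 1 and 1.33 in RonTK+/+ array 1 at 6 weeks, and the hair follicle mean is highest, at 0.72, in RonTK+/+ array 3 at 5 weeks.

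The genotypes were then compared with limma over all genes. Over the 3 ages, 0 of the 79 genes passed an adjusted p of 0.05, where 11 of all genes (0.0605%) did. By the unadjusted p of limma, 3 of the 79 were under 0.05 (3.80%), close to the 3.77% of all genes. The median difference of the 79 genes, RonTK-/- minus RonTK+/+, was -0.06, with 21 above 0 and 58 below it, and that of all genes was 0.00. Without the 3 arrays the median was -0.01, and 0 members passed in limma, where 9 of all genes did. In that fit 2 members had an unadjusted p under 0.05, and the share of all genes is not given here. Krt84 had the smallest p, with a mean log2 ratio of -0.10 ± 0.12 in RonTK-/- arrays and 0.02 ± 0.11 in RonTK+/+ arrays (SD, n = 9 each) and a difference of -0.12 ± 0.04 (SE, limma adjusted p = 1.000). Krt72, Krtap10-4, Krt32 and Krtap31-1 followed, with differences of -0.20, -0.09, -0.10 and -0.09.

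At 5 weeks 0 members passed, where 0.011% of all genes did, and 1 had an unadjusted p under 0.05 in limma, where 3.42% of all genes did. The 7 sheath keratins were all below 0, with a median difference of -0.69, the 12 shaft keratins had a median of -0.16 and the 38 keratin-associated proteins one of -0.21. The 9 epidermal keratins had a median of 0.07. Krt25 averaged 0.04 ± 0.05 in RonTK-/- arrays and 1.84 ± 3.03 in RonTK+/+ arrays (SD, n = 3 each), a difference of -1.80 ± 1.07 (SE, limma adjusted p = 0.999) that is smaller than the spread of the RonTK+/+ group. Without RonTK+/+ array 3 at 5 weeks and the other 2 raised arrays the Krt25 difference was -0.05 ± 0.07 (SE), and the median of all 79 was 0.02 in place of -0.12. The members with the smallest p were Krtap19-5 (-0.38 ± 0.17), Krtap13-1 (-0.40), Krtap4-6 (-0.22), Krtap7-1 (-0.47) and Krt4 (0.25). Leaving out RonTK+/+ array 3 at 5 weeks alone took these Krtap genes, in the same order, to -0.11, -0.07, -0.12 and -0.06. Their differences thus rested largely on that array. The groups did not overlap in Krt77 and Krt79, higher in RonTK-/- arrays, where 5.12% of all genes did so, or in Krt36, lower in RonTK-/- arrays, where 3.09% did so. Krt79 had ratios of 1.14, 1.06 and 1.04 in RonTK-/- glands, against 0.791, 0.725 and 1.00 in RonTK+/+ glands at that age.

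At 6 weeks both genotypes held an array with raised epidermal keratins. Again 0 members passed in limma, where 0.0165% of all genes did, and 6 had an unadjusted p under 0.05 (7.59%), where 6.15% of all genes did. Krt10 averaged 1.36 ± 2.58 in RonTK-/- arrays and 1.14 ± 2.02 in RonTK+/+ arrays, and Krt77 averaged 1.82 ± 2.70 and 1.52 ± 2.48 (SD, n = 3 each). The signs of both differences, 0.22 and 0.31, rested on single arrays, since leaving out RonTK-/- array 1 gave -1.27 and -1.24, leaving out RonTK+/+ array 2 gave -0.41 and -0.45, and leaving out RonTK+/+ array 3 gave -0.31 and -0.37. Arrays with the same number deviated together at this age, and with the number as a block in a limma fit of the 6-week arrays 0 members passed, where 0% of all genes did, and 1 had an unadjusted p under 0.05, where 4.09% of all genes had one. That member was Krt72, with a difference of -0.23 ± 0.08 (SE, limma adjusted p = 0.734). The median of the 79 was -0.02, and without the 3 arrays -0.06. In 10 members every RonTK-/- array was below every RonTK+/+ array (12.7%), where 8.77% of all genes did so, and in 0 members they were above, where 5.55% did so. The smallest p belonged to genes that were not raised, namely Krtap10-4 (-0.24 ± 0.06), Krt84 (-0.22 ± 0.06), Krtap5-2 (-0.23), Krtap5-1 (-0.20) and Krtap12-1 (-0.13), with a limma adjusted p of 0.765 for the first 2. Krtap10-4 had ratios of 0.790, 0.906 and 0.884 in RonTK-/- glands, against 1.04, 0.942 and 1.06 in RonTK+/+ glands.

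At 7 weeks no member but Krt15 was raised in any array, and 0 members passed in limma, where 0.033% of all genes did. An unadjusted p under 0.05 was found for 3 (3.80%), where 9.75% of all genes had one. Krt84 had ratios of 0.843, 0.866 and 0.848 in RonTK-/- glands, against 1.01, 0.995 and 0.959 in RonTK+/+ glands, so the groups did not overlap. The difference was -0.21 ± 0.06 (SE, limma adjusted p = 0.390). Krt83 was higher in every RonTK-/- array, with a difference of 0.27 ± 0.10 (adjusted p = 0.429), and Krt88, Krt36 and Krt16 followed with 0.22, 0.33 and -0.17. The largest difference was in Krt15, at -1.12 ± 0.96 (adjusted p = 0.746), and the next in Krt79, at 0.63 ± 0.40 (adjusted p = 0.651). In 6 members all RonTK-/- arrays lay below the RonTK+/+ arrays (7.59%), where 3.35% of all genes did so, and in 1 above, where 6.38% did so.

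**Figure D5:**
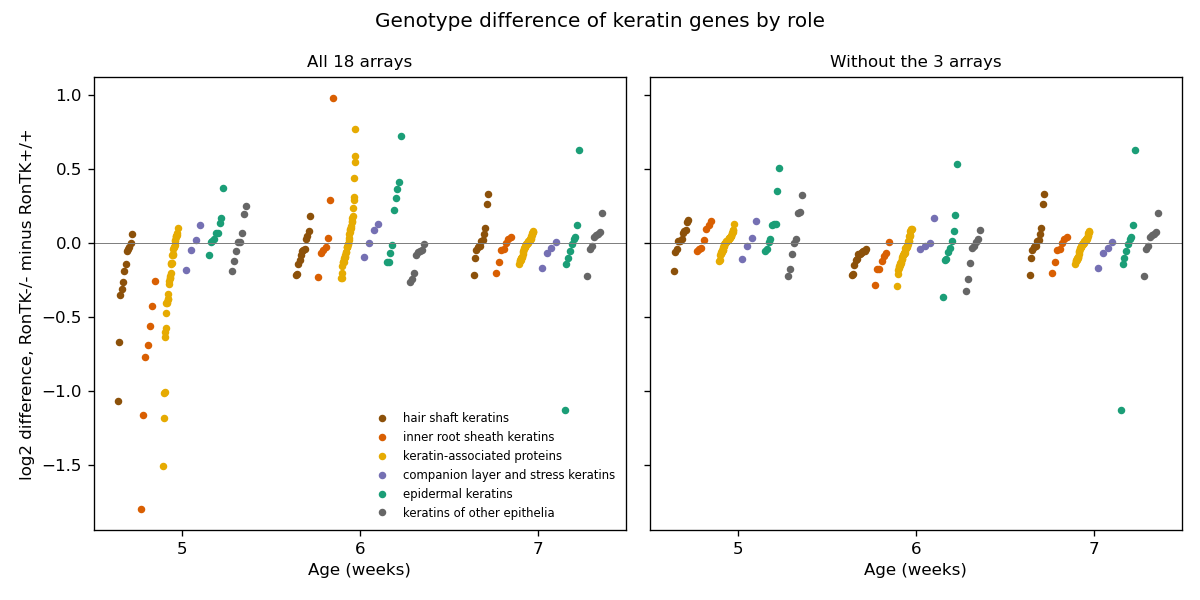
Difference in mean log2 ratio, RonTK-/- minus RonTK+/+, of 78 genes (points, coloured by role, without Krt88) at 5, 6 and 7 weeks, from all 18 arrays in the left panel and without the 3 raised arrays in the right panel. The sheath keratin Krt25 is at -1.80 at 5 weeks on the left and at -0.05 on the right, and Krt15 is at -1.12 at 7 weeks in both panels.

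Krt84 is a small difference in a narrow range. At 5 weeks it had 0.983, 1.05 and 1.01 in RonTK-/- glands, against 0.959, 0.954 and 1.00 in RonTK+/+ glands, and at 6 weeks 0.899, 0.933 and 0.988 in RonTK-/- glands, against 1.21, 1.05 and 1.02 in RonTK+/+ glands. The RonTK-/- arrays were the lower ones at 6 and 7 weeks and not at 5 weeks. The genotype by age interaction of Krt84 had a limma adjusted p of 0.697. Krtap10-4, Krt83, Krt88 and Krt4 followed in that test, in which 0 members passed, 0% of all genes did, and 3 members had an unadjusted p under 0.05 (3.80%), where 6.82% of all genes had one.

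With age, 0 members passed in limma in RonTK-/- glands, where 0.0385% of all genes did, and 0 in RonTK+/+ glands, where 0.104% did. An unadjusted p under 0.05 was found for 6 members in each, 7.59% of the 79, where 17.5% of all genes had one in RonTK-/- glands and 8.92% in RonTK+/+ glands. Each p for age is from the F test over all 3 ages, whereas each difference given is only 7 minus 5 weeks. In RonTK-/- glands Krt84 differed by -0.25 (limma F test, adjusted p = 0.183), and Krtap5-2, Krtap10-4, Krt88 and Krtap19-4 followed with -0.28, -0.13, 0.14 and -0.20. In RonTK+/+ glands Krt33b came first with -0.21 (limma F test, adjusted p = 0.346), and Krt83, Krtap5-4, Krtap13 and Krt84 had -0.30, -0.11, -0.01 and 0.02. The RonTK+/+ means of Krtap13 were -0.05, 0.12 and -0.06 at 5, 6 and 7 weeks. Those of Krt84 were -0.04, 0.13 and -0.02, so both genes were highest at 6 weeks. The 7 sheath keratins had a median of -0.02 in RonTK-/- glands and -0.63 in RonTK+/+ glands for 7 minus 5 weeks, and the RonTK+/+ value includes the raised array at 5 weeks. Without the 3 arrays Krt28 came first in RonTK+/+ glands, with 0.23 (limma adjusted p = 0.446). Still 0 members passed in either genotype, where 0 of all genes did in RonTK-/- glands and 3 in RonTK+/+ glands. The genotype comparisons share arrays with the age comparisons and are not independent of them.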

How the data were processed

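The deposited values are linear ratios, with a value for each probe set in each array. The unit was found from the values: 45101 probe sets were given for 18 arrays, and 87.4% of probe sets have a RonTK+/+ median within 1e-04 of 1. The labels' protocols give the extraction with TriZol, 1 round of amplification to biotin-labelled aRNA, and the array. How signals were background-corrected and summarised, with which software, and when arrays were scanned, the sources used here do not say. Log2 of the ratio was used with no pseudocount and no filter. From the platform annotation, 34945 probe sets with a single gene symbol were kept, without the 64 controls, and a gene is the mean log2 ratio of its probe sets (68 members have 1, 11 have up to 3). All 79 members were matched by Entrez gene to RefSeq (GRCm38.p6), with 0 symbols changed. A mean per group (6 groups) was estimated in limma 3.58.1 (R 4.3.3) with lmFit and eBayes, with 12 residual and 1.94 prior degrees of freedom. Tests are two-sided, moderated t for genotype and moderated F for age and the interaction, with Benjamini-Hochberg adjustment over all 18193 genes, and were run on simulated data first. Age differences are 7 minus 5 weeks. Figures and promoters used Python 3.11.15, matplotlib 3.10.9 and pandas 2.3.3.

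The rule named every called member, otherwise the 5 with the smallest p, the up to 6 widest and 2 narrowest ranges per role, and a fixed set of keratins. Members and lists were chosen with earlier results of these data known, and members named beyond the rule, and the 3 arrays set apart, were chosen after their values were seen. The labels do not say what an array's number marks. Deviations from the group means, over all genes, correlated between arrays of the same number in the 2 genotypes at 0.43, 0.24 and 0.32 at 6 weeks, so the number was taken as a pairing there. They correlated at 0.63, -0.82 and -0.76 at 5 weeks and at 0.26, -0.01 and -0.20 at 7 weeks, and there it was not. The number of arrays limits the precision.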

Additional observations from a re-analysis of the deposited data

How the results depend on the processing

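No member passed in any of the 7 comparisons under quantile normalization, median centring, a pseudocount or floor of 0.1, probe sets tested alone, only the groups compared (the single-age genotype and the age comparisons), an adjusted p under 0.1, the replicate block (0 members, also within the 6-week arrays, a fit added after seeing the data), without any single array (0 to 0 members) or without the 3 raised arrays, the last chosen after seeing the data. Array weights (gene-by-gene method) were the exception: 1 member passed in genotype at 7 weeks (Krt84, -0.24, limma adjusted p = 0.0296) and 7 in age in RonTK-/-, Krt84 among them (adjusted p = 0.0138), and the cause was not tested. The share of all genes that passed under these weights is not given here. The counts of 1 and 7 are therefore no result about the keratins. Leaving out single arrays turned the sign of 5 of the differences recomputed, which were those of the members with the smallest p in each comparison, of Krt25, Krt77, Krt79 and Krt36 at 5 weeks, Krt10 and Krt77 at 6 weeks, Krt15 and Krt79 at 7 weeks and Krt28 with age in RonTK+/+. Krt10 and Krt77, genotype at 6 weeks, ran from -1.27 to 1.39 and from -1.24 to 1.74, and without the 3 raised arrays Krt10 had -0.10. For age and genotype by age, the sign is that of the 7 minus 5 weeks difference alone. The F test that ranked the members there also takes in 6 weeks, so a turned sign is not a reversal of the tested result. Krt28, age in RonTK+/+, was -0.63 and ran from -1.10 to 0.23, above 0 without RonTK+/+ array 3 at 5 weeks or without the 3 raised arrays (0.23 in each). Krtap10-4, genotype by age, ran from -0.0077 to 0.059, below 0 without RonTK-/- array 3 at 7 weeks (-0.0073) or RonTK+/+ array 2 of that age (-0.0077). Krtap13, age in RonTK+/+, ran from -0.065 to 0.069, above 0 without RonTK+/+ array 1 at 5 weeks (0.069) or array 2 at 7 weeks (0.019). Leaving out 1 array by turns, the median difference of the members ran from -0.08 to 0.001 for genotype over ages, above 0 without RonTK+/+ array 3 at 5 weeks, from -0.03 to 0.02 for genotype at 7 weeks, above 0 without RonTK+/+ array 3 at 7 weeks, from -0.15 to 0.02 for genotype at 5 weeks, where RonTK+/+ array 3 at 5 weeks decides its sign, and from -0.12 to 0.04 for genotype at 6 weeks, lowest without RonTK-/- array 1 at 6 weeks. Counts of members at a log2 ratio of 1 or more over the scalings were 14 to 17 for RonTK-/- array 1 at 6 weeks, and for the RonTK+/+ arrays 20 to 23 (array 3 at 5 weeks) and 4 to 6 (array 1 at 6 weeks). Signal over background is unknown, so no member could be called detected or not detected.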

Other observations

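Some genes close to the keratins but outside the rule were high in the same 2 arrays and others were not. Probe sets that match several genes, a keratin or keratin-associated gene among them, were left out of the members, and the one listed for Gm10228, 1110025L11Rik and Krtap6-1 had 1.56 in RonTK-/- array 1 at 6 weeks and 2.16 in RonTK+/+ array 3 at 5 weeks. That of Gm11937, Gm11938 and Krtap2-4 had 0.34 and 0.86, and the other 5 such probe sets did not exceed 0.33 in either. The predicted genes Gm10229 and Gm11559 had 1.27 and 1.37 in the RonTK-/- array and 2.34 and 2.28 in the RonTK+/+ array. Gm11559 is also listed for 1 of those 5 probe sets, with Gm11567, Gm11568 and Krtap9-1, which had only -0.08 and 0.01 there. The keratinocyte-associated genes Krtcap2 and Krtcap3 had 0.00 and 0.02 in the RonTK-/- array and 0.05 and -0.05 in the RonTK+/+ array. Mt4, a metallothionein of stratified epithelium, had 1.69 in RonTK-/- array 1 at 6 weeks, 1.61 in RonTK+/+ array 3 at 5 weeks and 0.96 in RonTK+/+ array 1 at 6 weeks, so it was high in all 3.

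The 7 keratins left out by the rule differed among themselves, and Krt7 and Krt19 are not given here. Krt14, Krt5 and Krt17 were higher in the arrays with raised epidermal keratins than in RonTK+/+ array 3 at 5 weeks. Krt14 had 1.08 in RonTK-/- array 1 at 6 weeks, -0.17 in RonTK+/+ array 3 at 5 weeks and 0.79 in RonTK+/+ array 1 at 6 weeks, and Krt5 had 0.98, -0.16 and 1.00. Krt17, made in the follicle and in stressed epidermis, had 0.49, 0.02 and 0.44. The luminal keratins Krt8 and Krt18 had -0.58 and -0.19, 0.10 and 0.04, and 0.00 and 0.16 in those 3 arrays. The 3 sebaceous gland genes measured differed among themselves. In those 3 arrays Elovl3 had 2.00, 1.20 and 2.23, Mc5r had 0.04, 0.83 and 0.27, and Scd3 had 0.01, -0.36 and 0.23. The highest value of Elovl3 was 3.24 in RonTK+/+ array 3 at 7 weeks, where Krt10 had a ratio of 1.25.

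Hoxc10, whose level follows body position, had 3.83 in RonTK-/- array 1 at 6 weeks, 0.01 in RonTK+/+ array 3 at 5 weeks and -0.18 in RonTK+/+ array 1 at 6 weeks, so the raised arrays lay in both of its ranges.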
